A study of Mus musculus with 3 samples.

Results

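Promoters of long intergenic noncoding RNAs (lincRNAs) were examined for open chromatin in transformed mouse B-cell precursors with and without CDK6 kinase activity. A lincRNA was kept when its gene start lay on an autosome and more than 5000 bp from the start of any protein-coding transcript. This left 4558 of the 5209 autosomal lincRNA genes, among 51229 autosomal gene starts in all (GENCODE mouse release 21, build GRCm38/mm10). The promoter window began 2000 bp before the gene start and ended 200 bp after it. A promoter was called open in a list whose peaks overlapped this window by 1 base or more.

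The data were 4 lists of ATAC-seq peaks. In ATAC-seq a transposase places sequencing adapters into accessible DNA, and peaks mark places where insertions pile up. Bone marrow cells of mice homozygous for wildtype *Cdk6* or for the kinase inactive K43M allele had been transduced with a retrovirus carrying BCR-ABL(p185), so that the oncogene was shared by all cell lines and both copies of *Cdk6* differed. Each list came from 1 pre/pro-B-cell line, and each genotype had 2 lines. The labelled samples are the lists called here K43M replicate 1, K43M replicate 2 and WT replicate 2. The remaining list, here WT unnumbered, belongs to no labelled sample. It was placed with the wildtype because its name holds WT and the design text names 2 lines per genotype. That text also says that a first wildtype line was reanalysed. The labels do not say whether this list was prepared together with the other lists. Results without it are given below. The labels do not say whether the 2 lines of a genotype came from separate mice, so a p-value measures only the spread between these lines.

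LincRNAs are transcribed by RNA polymerase II from their own promoters between protein-coding genes, and are often spliced and polyadenylated but not translated. Some act in the nucleus as scaffolds of nuclear bodies, some influence a neighbouring gene, and others are the source of microRNAs or small nucleolar RNAs cut from their transcripts. Their expression is usually lower and more restricted to single tissues than that of protein-coding genes. An open promoter shows that the DNA is accessible and does not measure the amount of RNA.

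The lists held between 32105 (WT unnumbered) and 37945 (K43M replicate 1) autosomal peaks. B-lineage identity was checked at marker promoters. Of 12 B-lineage markers 7 had a peak in every list, among them *Pax5*, *Ebf1* and *Igll1*, and only *Dntt* had none. Of 6 T-lineage markers *Lck* and *Tcf7* were open in every list, and *Cd3e*, *Cd3g*, *Cd4* and *Cd8a* in none. None of 5 myeloid markers was open in any list.

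The promoters open in 1 genotype only with the best rank are shown first as sequence. Each sequence is the 201 bases centred on a peak summit, read on the strand of the gene from GRCm38, and capitals mark matches to the motifs that were searched. The first pair belongs to the wildtype lines. In *Gm26692* the capitals are the SP1 motif read on its other strand, and the sequence holds 20 CG dinucleotides. *Gm33056* has no match and 3 CG dinucleotides.
Gm26692, chr5:107687951-107688151, minus strand: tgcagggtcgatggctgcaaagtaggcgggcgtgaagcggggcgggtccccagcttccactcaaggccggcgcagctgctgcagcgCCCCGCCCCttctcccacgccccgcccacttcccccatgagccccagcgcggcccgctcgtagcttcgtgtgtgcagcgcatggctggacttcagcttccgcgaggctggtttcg
Gm33056, chr10:19291097-19291297, plus strand: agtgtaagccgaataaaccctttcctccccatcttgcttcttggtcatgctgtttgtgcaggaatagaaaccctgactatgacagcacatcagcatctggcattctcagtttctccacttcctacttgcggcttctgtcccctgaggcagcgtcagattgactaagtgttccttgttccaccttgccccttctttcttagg

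The next pair belongs to the K43M lines. Both sequences hold the CCAAT type motif of NFY, once in *Gm32914* and 2 times in *Gm7967*, where it is read on the other strand. Of the bases shown for *Gm7967*, 69.7% are masked as repeat in the reference. Only 3 of 38 K43M-only regions held an NFY match.
Gm32914, chr6:146001868-146002068, minus strand: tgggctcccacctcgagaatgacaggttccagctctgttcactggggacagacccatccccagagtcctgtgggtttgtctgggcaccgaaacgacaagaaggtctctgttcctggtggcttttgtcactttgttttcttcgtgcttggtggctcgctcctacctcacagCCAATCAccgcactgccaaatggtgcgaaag
Gm7967, chr1:98589322-98589522, plus strand: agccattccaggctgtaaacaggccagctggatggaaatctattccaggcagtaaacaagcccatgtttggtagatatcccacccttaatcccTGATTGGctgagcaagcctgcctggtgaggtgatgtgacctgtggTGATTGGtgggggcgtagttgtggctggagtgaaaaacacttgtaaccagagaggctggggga

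The following sequences stand for promoters open in every list. *Gm19510* is the lincRNA with the 1 region called for a difference in fold enrichment between the genotypes (limma, adjusted p = 0.0451). It was not called when the lists were not centred (limma, adjusted p = 0.13). *Mir17hg* and *Mir155hg* are the hosts of microRNAs known from lymphoid cells. The capitals mark an AP-1 motif and a TATA box in *Gm19510* and in *Mir155hg*, and an NFY motif in *Mir17hg*. The 2 microRNA hosts are rich in CG dinucleotides, with 23 in *Mir17hg* and 31 in *Mir155hg* against 5 in *Gm19510*.
Gm19510, chr15:59795762-59795962, minus strand: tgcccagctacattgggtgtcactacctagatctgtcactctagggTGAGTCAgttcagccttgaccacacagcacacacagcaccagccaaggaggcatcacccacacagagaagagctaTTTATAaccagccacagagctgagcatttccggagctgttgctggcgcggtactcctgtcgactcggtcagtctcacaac
Mir17hg, chr14:115040785-115040985, plus strand: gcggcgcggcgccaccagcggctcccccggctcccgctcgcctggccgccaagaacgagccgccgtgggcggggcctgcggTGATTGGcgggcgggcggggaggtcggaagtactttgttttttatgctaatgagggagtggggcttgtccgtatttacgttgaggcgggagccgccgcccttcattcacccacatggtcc
Mir155hg, chr16:84703221-84703421, plus strand: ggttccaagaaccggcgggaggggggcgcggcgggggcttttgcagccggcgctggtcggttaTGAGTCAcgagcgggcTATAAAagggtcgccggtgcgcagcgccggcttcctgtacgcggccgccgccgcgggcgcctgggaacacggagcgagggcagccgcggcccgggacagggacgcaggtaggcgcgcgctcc

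Most lincRNA promoters were closed in these cells. No list had a peak at 4019 of the 4558 (88.2%), and 539 (11.8%) had a peak in at least 1 list. Among the wildtype lists, WT unnumbered held a peak at 375 of the promoters (8.23%) and WT replicate 2 at 376 (8.25%). Of the K43M lists, replicate 1 held one at 421 (9.24%) and replicate 2 at 358 (7.85%). Over all autosomal gene starts the shares were, in this order of lists, 24.8%, 24.7%, 26.5% and 25.3%. Protein-coding promoters were open at 46.6%, 46.4%, 49.3% and 47.9%. In both of these the K43M lists lay above the wildtype lists, while for the lincRNA promoters they lay on either side of them.

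The share of open lincRNA promoters did not separate the genotypes. The mean was 8.24% in the wildtype lists and 8.55% in the K43M lists, a difference of 0.307 percentage points, while the 2 K43M lists differed from each other by 1.38 points. The exact two-sided permutation test over 6 assignments gave p = 1, and 0.333 is the smallest p that this design allows. Set against the protein-coding promoters of the same list, the share of lincRNA promoters was 0.177 and 0.178 of the protein-coding share in the wildtype lists, and 0.187 and 0.164 of it in the K43M lists. K43M minus wildtype was -0.00173 on this scale (exact permutation p = 1). Both signs depended on 1 library: without K43M replicate 1 the first difference was -0.384 points, and without K43M replicate 2 the second was 0.01.

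**Figure D1:**
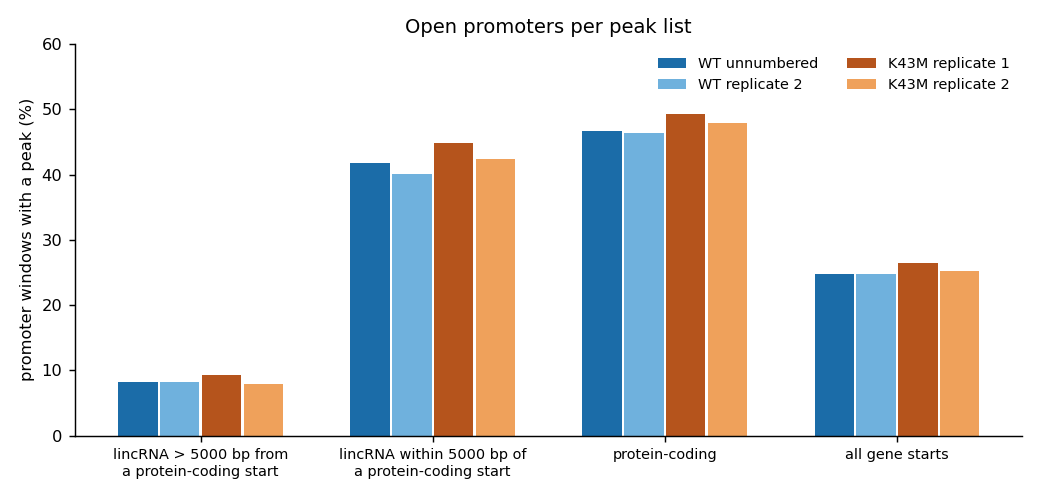
The bars give the percentage of promoter windows with a peak in each of the 4 lists, for lincRNAs more than 5000 bp from a protein-coding start, lincRNAs nearer than that, protein-coding genes and all autosomal gene starts. LincRNA promoters away from protein-coding starts stand between 7.85% and 9.24%, and the K43M lists hold both the lowest and the highest of these values.

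Distance to a protein-coding start separated the lincRNAs. The 651 lincRNAs within 5000 bp of such a start, which the rule left out, were open at 41.8%, 40.1%, 44.9% and 42.4% in the 4 lists, nearly as often as protein-coding promoters. Their windows can hold the peak of the neighbouring protein-coding promoter, as for *Snhg10* at 409 bp from such a start. The same peak may then count for both genes, and how often it did was not counted. Among the 4558, a peak in at least 1 list was found at 18.3% of 278 promoters between 5 and 10 kb from a protein-coding start. The share was 17% of 1467 promoters between 10 and 50 kb and 11.3% of 1705 between 50 and 200 kb. It was 4.15% of 1108 promoters that lay more than 200 kb away. At the threshold itself, *Mir142hg* lay just outside at 4964 bp from *Tspoap1*, and *Snhg12* just inside at 5238 bp from *Rab42*.

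Base composition separated them too. A start was called CpG-rich when the sequence within 500 bp on either side had more than 50% G and C and a ratio of observed to expected CpG above 0.6. Only 112 lincRNA starts (2.46%) were CpG-rich, against 45.7% of protein-coding starts. Of these 112 starts 63.4% were open in at least 1 list and 48.2% in every list. The other 4446 starts were open in at least 1 list at 10.5% and in every list at 4.3%. Protein-coding genes had 83.7% of CpG-rich and 25.3% of CpG-poor promoters open in at least 1 list. Both values lay above those of the lincRNAs. By exon number the share open in at least 1 list ran from 13.5% with 1 exon to 8.84% with 5 or more. LincRNAs that carry a symbol other than a clone name or a Gm number were open in at least 1 list at 26% of 123, against 11.4% of the 4435 others.

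**Figure D2:**
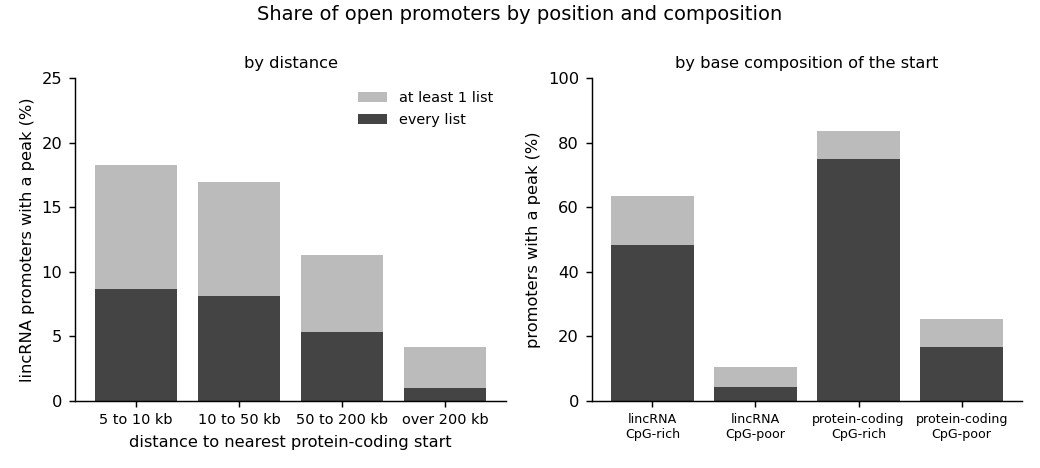
Light bars give the percentage of promoters with a peak in at least 1 list and dark bars the percentage with a peak in every list, for lincRNAs by distance to the nearest protein-coding start on the left and for CpG-rich and CpG-poor starts of lincRNAs and protein-coding genes on the right. The left panel falls from 18.3% to 4.15% over the 4 distance classes, and in the right panel CpG-rich lincRNA starts reach 63.4%.

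Where a lincRNA promoter was open, the peak was weaker and less tightly placed than at protein-coding genes. Fold enrichment, as the authors deposited it, divides the signal at a summit by the local background. From here on 4 values in a row follow the order WT unnumbered, WT replicate 2, K43M replicate 1, K43M replicate 2. The median fold enrichment over the lincRNA promoters open in every list was 7.97, 8.08, 8.55 and 8.02. At protein-coding promoters open in every list the medians were 10.1, 10.1, 10.4 and 9.89. The same peaks at lincRNAs had a median width of 591, 573, 613 and 571 bp, against 879, 838, 883 and 786 bp at protein-coding promoters. A summit lay within 200 bp of the gene start at 45.7% to 49.8% of the lincRNAs and at 76.9% to 77.7% of the protein-coding genes.

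Summits nevertheless gathered just upstream of lincRNA starts. In the 250 bp before the start there were 3.4, 3.42, 3.51 and 3.12 summits per 100 lincRNAs. The bin from 1000 to 750 bp upstream held 0.658, 0.527, 0.702 and 0.636. Protein-coding genes had 26.6 to 27.5 summits per 100 genes in the first of these bins.

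**Figure D3:**
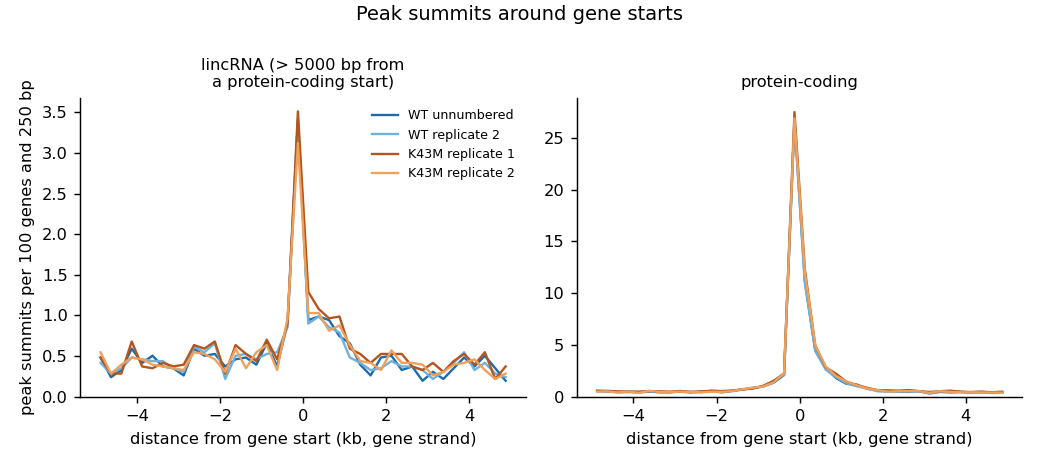
Lines give the number of peak summits per 100 genes in bins of 250 bp from 5000 bp upstream to 5000 bp downstream of the gene start, for lincRNAs on the left and protein-coding genes on the right, with 1 line per list and separate vertical scales. All 4 lists peak in the bin just upstream of the lincRNA start, at 3.12 to 3.51.

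A peak in every list was present at 245 lincRNA promoters, 5.38% of the 4558, against 22.3% of all gene starts. These were 45.5% of the lincRNA promoters open in at least 1 list. For protein-coding promoters that share was 83.5%, and for lincRNAs within 5000 bp of a protein-coding start 80.3%. LincRNA promoters open in 1 list numbered 111, and the other 116 were open in 2 or 3 lists in mixed combinations. The nearest protein-coding gene was itself open in every list for 148 of the 245, and for 1529 of the 4019 lincRNAs without a peak. Of all protein-coding promoters 43.4% were open in every list.

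**Figure D4:**
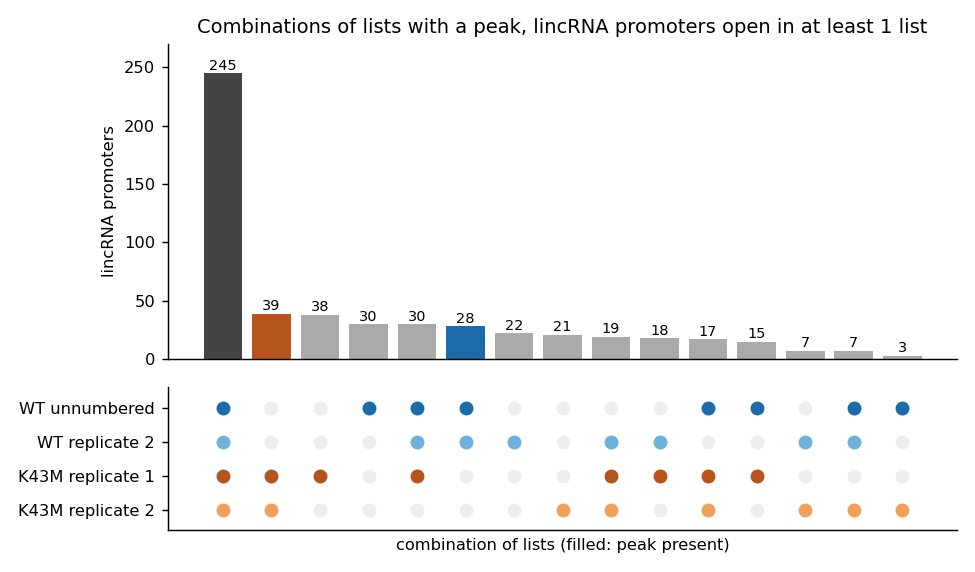
Bars count the 539 lincRNA promoters open in at least 1 list by the combination of lists with a peak, shown as filled dots below. The combination of all 4 lists holds 245 promoters, both K43M lists alone hold 39 and both wildtype lists alone hold 28.

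The rank of a promoter was the lowest of its 4 within-list percentiles by the -log10 q of its highest peak. It ran from 0.707 to 99.4 over the 245, with a median of 57.2. First was *Gm42418* on chromosome 17 with fold enrichments of 26.3, 23.5, 24.5 and 21.7. This gene overlaps sequence annotated as ribosomal RNA, which exists in many copies, so its reads are uncertain. After it came *2310047D07Rik*, *1700096K18Rik*, *4932412D23Rik*, *BC002059*, *4930580E04Rik* and *5430416N02Rik*, all with a lowest percentile above 95. Most of these are clone names without a known role. *BC002059* had fold enrichments of 15.4, 17.3, 15.8 and 16.2, with the 2 genotypes overlapping. The next 8 were *Gm20939*, *Gm5165*, *Gm13565*, *BC043934*, *6720427I07Rik*, *Gm39469*, *F730311O21Rik* and *Gm15409*, down to a lowest percentile of 91.3. *BC002059*, *Gm5165* and *Gm39469* were among those with an NFY motif near the summit. Besides the lincRNAs described below, the promoters open in every list with a symbol of their own were *Platr1*, *Platr7*, *Dubr*, *AU019990*, *AU020206*, *D5Ertd605e* and *Tmem250-ps*. *Dubr*, a lincRNA described in muscle differentiation, had fold enrichments of 8.73, 9.81, 9.93 and 8.51.

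Of the broadly expressed lincRNAs listed, 6 met the distance rule and 4 of them were open in every list. *Malat1*, the abundant nuclear RNA of splicing speckles, had fold enrichments of 8.22, 8.59, 11.3 and 7.92. Its summits lay upstream of the annotated gene start, at -1048, -967, -907 and -1027 bp from it. *Neat1*, the scaffold of nuclear paraspeckles, had 6.14, 5.79, 5.7 and 7.86. For both genes the K43M values lay on either side of the wildtype values. *2900097C17Rik*, the mouse gene of NORAD, an RNA that binds Pumilio proteins, had 8.82, 8.05, 10.5 and 10.4, with both K43M lists above both wildtype lists (limma, adjusted p = 0.431). *Pvt1*, which lies 50564 bp from *Myc*, had 6.4, 7.24, 5.43 and 6.18. Both K43M lists lay below both wildtype lists here, but with the log2 values centred as in the limma fit WT unnumbered and K43M replicate 2 were both at 2.68 (limma, adjusted p = 0.721). *Lncpint*, a target of p53, had a peak only in WT unnumbered (3.85) and K43M replicate 1 (3.23), and *Miat* had none.

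Of the 4 host genes of small nucleolar RNAs that met the rule, 3 were open in every list. *Snhg6* had fold enrichments of 12, 12.1, 14.2 and 14.7, with its summits at -38, -39, -49 and -37 bp from the start. *Snhg12* had 7.85 and 6.82 against 9.03 and 8.92. In both genes the K43M values were the higher ones and the genotypes did not overlap. With 2 lists per genotype even such a separation reaches only 0.333 in a two-sided exact permutation test. The share of all regions without overlap was not counted. The limma fit over all regions given below called neither *Snhg6* (limma, adjusted p = 0.367) nor *Snhg12* (limma, adjusted p = 0.542). *Epb41l4aos* had 11.4 and 10.3 against 10.9 and 8.15, with overlap. *Snhg20* had no peak in its window, and the nearest peak lay 167 to 375 bp outside it in the 4 lists.

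Of 7 listed microRNA hosts 3 were open in every list. *Mir17hg*, the source of the miR-17-92 cluster that acts in B-cell development and lymphoma, had nearly equal fold enrichments of 6.52, 6.62, 6.62 and 6.75. Its summits lay at the outer edge of the window, at -1994, -2023, -2155 and -2145 bp from the gene start, so that only the first was inside and the other lists counted as open by overlap of the peak. *Mir155hg*, the source of miR-155 in activated lymphocytes, had 8.75, 10.0, 9.92 and 9.33, with a summit 147 to 159 bp downstream of the start. *Mirt1* stood on the list although its name refers to myocardial infarction, and it had 10.6, 10.3, 10.6 and 8.37. The genotypes overlapped in *Mir155hg* and in *Mirt1*. The neuronal hosts *Mir124-2hg* and *Mir9-3hg* had no peak, nor had *Mir670hg*, and *Mir124a-1hg* had a peak only in K43M replicate 1 (4.46).

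Among 11 lincRNAs listed for blood and immune cells, 5 were open in every list, including *Mir17hg*, *Pvt1* and *Mir155hg*. *Lockd*, which lies 8579 bp downstream of the start of the CDK inhibitor gene *Cdkn1b*, had fold enrichments of 5.52, 5.98, 6.13 and 6.82. In these values both K43M lists lay above both wildtype lists, but after centring of the log2 values as in the limma fit the genotypes overlapped (limma, adjusted p = 0.806). *Ptgs2os2*, 64616 bp from the prostaglandin synthase gene *Ptgs2*, had 5.79, 5.09, 10.8 and 8.76. Here too the K43M lists lay above the wildtype lists (limma, adjusted p = 0.103). *Gm17767* was open in WT replicate 2 (5.76), K43M replicate 1 (7.86) and K43M replicate 2 (5.45). *Gm14005*, the gene of Morrbid that acts on myeloid survival, had no peak, and neither had *Ifngas1*, *Bloodlinc* and *Lncenc1*.

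*Trp53cor1*, or lincRNA-p21, was the member of that list open in the K43M lines only. It is a p53 target 11800 bp from *Cdkn1a*, the gene of p21. The K43M lists gave fold enrichments of 5.19 and 6.12, at the within-list percentiles 19.3 and 39.8. Neither wildtype list had a peak in the window, and the nearest ended 821 bp from it in WT unnumbered and 6835 bp from it in WT replicate 2. The annotated gene start of *Cdkn1a* itself had no peak in its window in any list. Any other transcript start of *Cdkn1a* was not examined, so its promoter cannot be called closed.

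The imprinted lincRNAs *H19*, *Meg3* and *Mirg* had no promoter peak in any list. For *H19* a peak lay 91 bp outside the window in K43M replicate 1 and 58 bp outside in K43M replicate 2, while the nearest wildtype peaks were 6796 and 44073 bp away. Of 8 lincRNAs listed for other tissues 7 had no peak. They were *Hotair*, *Rmst*, *Halr1* and *Carmn*, and *Miat*, *Meg3* and *Lncenc1*, which also stood on the other lists above. The lists are therefore not separate sets. The exception was *Bvht*, known from heart development, with fold enrichments of 5.65, 6.21, 5.46 and 6.42 and summits at -1362, -1343, -1336 and -1349 bp from its start.

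**Figure D5:**
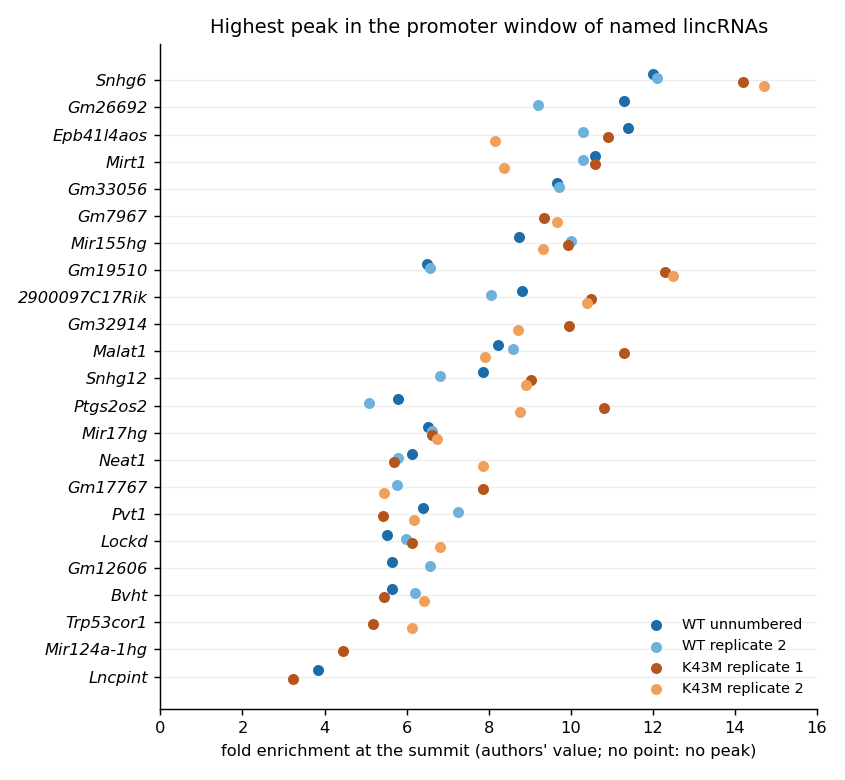
Points give the authors' fold enrichment of the highest peak in the promoter window for the listed lincRNAs that were open in at least 1 list and for *Gm19510* and 5 lincRNAs open in 1 genotype only, with 1 colour per list and no point where a list had no peak. *Snhg6* lies highest, at 12 to 14.7, and *Gm19510* shows the K43M lines at 12.3 and 12.5 and the wildtype lines at 6.5 and 6.56.

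Few promoters had a peak in both lines of 1 genotype but in no line of the other. Both wildtype lists alone held 28 lincRNA promoters, 0.614% of the 4558, against 0.48% of all gene starts. Both K43M lists alone held 39, or 0.856%, against 1.12% of all gene starts. There were 1.39 K43M-only promoters for each wildtype-only promoter among these lincRNAs, 3.19 among protein-coding genes and 2.34 among all gene starts. The order of the 2 counts turned with the number of peaks used: when all lists were reduced to an equal number of peaks 31 promoters were wildtype-only and 29 K43M-only. With 1 list left out, so that the other stood alone for its genotype, the wildtype-only count was 50 without WT unnumbered, 58 without WT replicate 2 and 58 without K43M replicate 1, and the K43M-only count was 60 without K43M replicate 1 and 77 without K43M replicate 2. Shares of all gene starts were not computed under these settings, so whether the turn is particular to lincRNAs was not tested. In the main setting between 21 and 38 promoters were open in 1 list alone.

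Promoters of 1 genotype only had weaker peaks than those open in every list. The median of the lowest percentile was 30.1 for the wildtype-only and 19.9 for the K43M-only promoters, against 57.2 for those in every list. It was above 50 in 7 of 28 and in 5 of 39. A peak of the other genotype lay within 1000 bp of the window at 6 of the 28 and at 7 of the 39. Of all protein-coding promoters 0.538% were wildtype-only and 1.72% K43M-only. The nearest protein-coding gene had the same pattern for none of the 28 wildtype-only lincRNAs and for 1 of the 39 K43M-only lincRNAs, *4930463O16Rik*, which lies 45743 bp from *Ckap4*. In the same neighbourhood *E230014E18Rik*, 15991 bp from *Ckap4*, was open in the wildtype lists only, with a K43M peak 215 to 270 bp outside its window.

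The wildtype-only promoter with the best rank was *Gm26692* on chromosome 5 (gene start 107688010, minus strand). Its fold enrichment was 11.3 and 9.21 in the wildtype lists, and the nearest K43M peaks lay 35336 and 89757 bp from the window. The nearest protein-coding gene, 36333 bp away, is *Gfi1*, a transcriptional repressor in blood cell development, whose promoter was open in both wildtype lists and in K43M replicate 1. The start of *5830411K02Rik* lies in the same window, so the peak cannot be given to either transcript. *Gm33056* on chromosome 10, 65544 bp from *Olig3*, followed with 9.66 and 9.71 and no K43M peak within 48698 bp. *Gm26744* had 12.2 and 9.57, *Gm49700* had 14.6 and 9.84, and *Gm16386* had 9.88 and 7.93.

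*Gm12606* on chromosome 4 lies 8789 bp from the annotated start of *Cdkn2a*, the tumour suppressor locus of p16 and p19ARF. The wildtype lists gave 5.65 and 6.56. K43M peaks lay 435 and 459 bp outside the window, and the annotated *Cdkn2a* gene start, that of its upstream promoter, was open in the K43M lists only. *Platr27*, a lincRNA described in pluripotent cells, had 6.91 and 6.67. The other wildtype-only lincRNAs among the first 20 were *Gm41300*, *Gm19708*, *4930477G07Rik*, *1700025J12Rik*, *Gm43837*, *Gm19619*, *Gm32122*, *Gm33728*, *Gm44969*, *AC111128.2*, *Gm41386*, *Gm46560* and *1700072G22Rik*. For *Gm41300* K43M peaks came within 2 and 50 bp of the window and for *Gm44969* within 99 and 15 bp, so that both turn on the edge of the window. Merged over the lists, the peaks at each form a region with a peak in every list. The log2 difference, K43M minus wildtype, was -0.28 at *Gm41300* (limma, adjusted p = 0.626) and 0.16 at *Gm44969* (limma, adjusted p = 0.825).

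Of the K43M-only promoters *Gm32914* on chromosome 6 (gene start 146001763, minus strand) had the best rank. The K43M lists gave fold enrichments of 9.95 and 8.71, with summits at -205 and -204 bp from the start. The nearest wildtype peaks lay 1532 and 2299 bp from the window, and the nearest protein-coding gene, *Sspn*, had no promoter peak in any list. *Gm7967* on chromosome 1 had 9.35 and 9.66, with a peak of WT unnumbered 78 bp outside the window and none of WT replicate 2 within 41799 bp. *Gm36503* had 8.47 and 8.72 and no wildtype peak within 702141 bp. *Gm32540*, 142272 bp from *Irs2*, had 7.94 and 7.66 with no wildtype peak within 33933 bp.

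*Gm47117* had 6.39 and 7.43, with wildtype peaks 45 and 39 bp outside the window. Merged over the lists, the peaks there form a region with a peak in every list. Its log2 fold enrichment, K43M minus wildtype, was -0.02 (limma, adjusted p = 0.979), so this promoter too turns on the edge of the window. *Gm26654* and *4930477E14Rik* start on opposite strands of chromosome 3 and share 1 open region, with 7.2 and 6.2. Also among the first 20 were *AC141471.3*, *Gm26583*, *Gm20754*, *Gm20442*, *Gm13293*, *Gm48284*, *Gm43821*, *Gm28942*, *Gm37584*, *6530411M01Rik*, *Gm48671*, *Gm45495* and *Gm35520*. By chromosome, the highest K43M-only counts were 6 of 240 lincRNAs on chromosome 3 and 6 of 308 on chromosome 9. Those on chromosome 3 include *Gm26654* and *4930477E14Rik* with their shared region. The highest wildtype-only count was 4 of 354 on chromosome 10, which also held 3 K43M-only promoters. Shares of all gene starts by chromosome were not computed, so these counts have no background.

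Fold enrichment was compared at the regions that had a peak in every list. Overlapping peaks were merged, and log2 fold enrichment, centred on the median of each list, was tested with limma over 20431 autosomal regions. At an adjusted p under 0.05, 0.113% of these regions were higher and 0.0636% lower in K43M. Of 276 regions at lincRNA promoters 1 was called, and it was higher in K43M. Without centring 0 of the 276 were called, and also 0 of all 20431 regions. With -log10 p of the peak in place of fold enrichment 7 of the 276 were called. That setting called 541 of all 20431 regions, against 36 in the fit reported here. With 1 list left out a single line stands for its genotype, so counts called are not given here for those fits. Unadjusted p was under 0.05 at 32 of the 276 (11.6%), against 12.4% of all regions. The median difference was -0.00 on the log2 scale, with single regions from -0.65 to 0.93 and a median SE of 0.19.

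The region called lay upstream of the *Gm19510* start (chr15:59795581-59796056; gene start 59794959, minus strand), a lincRNA with no role known to the sources used here, 146306 bp from *Trib1*. Its fold enrichments were 6.5, 6.56, 12.3 and 12.5. The K43M lists did not overlap the wildtype lists, and the log2 difference was 0.93 with an SE of 0.16 (limma, adjusted p = 0.0451). The adjusted p was 0.13 without centring (limma). With 1 list left out the log2 difference ran from 0.86 to 0.99, and a single line then stands for its genotype.

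Among the differences that did not pass were 0.79 at *Gm10825* (limma, adjusted p = 0.0667), 0.84 at *Ptgs2os2* (adjusted p = 0.103), 0.73 at *AC120429.1* (adjusted p = 0.111), 0.79 at *Gm26888* (adjusted p = 0.133) and 0.86 with an SE of 0.30 at *Gm37494* (adjusted p = 0.272). With 1 list left out the difference ran from 0.68 to 0.89 at *Gm10825* and from 0.75 to 0.93 at *Ptgs2os2*. With -log10 p in place of fold enrichment, *Ptgs2os2* passed (limma, adjusted p = 0.0362), as did *Gm26888* (limma, adjusted p = 0.00104). That setting called 541 of all 20431 regions. In the other direction *Gm48684* had -0.56 (adjusted p = 0.192), where the 4 fold enrichments were 10.0, 11.1, 7.05 and 7.26.

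Sequence within 100 bp of the summits was searched on both strands for short motifs. The letters were CCAATCA or CCAATGA for NFY, GGGGCGGGG for SP1, CCGGAAGT for ETS, GCGCATGC for NRF-1, TGANTCA for AP-1 and TATAAA for the TATA box. CTCF was searched by its consensus. Of 241 regions at lincRNA promoters open in every list 14.5% held NFY, against 15.9% of protein-coding promoter regions, 9.76% of all regions in every list and 5.38% of regions away from any gene start. The shares of the other G and C rich motifs were lower at lincRNAs. SP1 was present at 5.81% of the lincRNA regions and 21.1% of the protein-coding regions, ETS at 1.66% and 9.16%, and NRF-1 at 0.83% and 4.83%. AP-1 was present at 7.88% against 2.31%, the TATA box at 4.15% against 2.19%, and CTCF at 2.9% against 0.539%. Regions in every list away from any gene start held SP1 at 3.76%, ETS at 1.3% and NRF-1 at 1.01%. They held AP-1 at 9.4%, the TATA box at 5.71% and CTCF at 4.17%. For these motifs the lincRNA regions thus lay nearer to the regions away from gene starts than to protein-coding promoters. In all regions with a peak in at least 1 of the 4 lists the shares were 6.8% for NFY, 5.95% for SP1 and 2.25% for ETS. They were 1.36% for NRF-1, 7.62% for AP-1, 5.98% for the TATA box and 4.04% for CTCF. Median G and C content was 50.8% at lincRNA promoters open in every list, between 47.8% away from gene starts and 59.2% at protein-coding promoters.

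Promoters of 1 genotype only had a lower G and C content, with a median of 46.7% in the wildtype-only and 49.0% in the K43M-only group. NFY was found at 2 of 28 wildtype-only regions and 3 of 38 K43M-only regions, and SP1 at 3 and 1. CTCF was found at 2 and 1, AP-1 at 2 and 3, and neither group held an ETS or NRF-1 match. A match of letters is a description of the sequence and not of binding.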

How the data were processed

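The authors trimmed reads, mapped them to mm10 with bwa-mem, removed blacklisted, low-quality and multiply mapped reads, and called peaks per library with MACS2 (--nomodel, shift and extension set); the submitters' processing notes name Trimmomatic 0.36, BWA 0.7.15, SAMtools 1.3.1, MACS2 2.1.0, FastQC and bedtools. No control or pooling is named. For each peak the authors deposited its position, a fold enrichment (ratio), -log10 p and -log10 q values, and a display score that was not used. The lists hold peaks and no totals of reads, which leaves the depth unknown, and a weak peak may be missed in 1 list.

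Gene starts came from GENCODE release 21 on GRCm38. Fold enrichment was analysed as log2 in limma 3.58.1 (R 4.3.3) with Benjamini-Hochberg adjustment over all regions; other steps used Python 3.11.15, pandas 2.3.3 and pysam 0.24.0. Scripts were tested on simulated data. Named genes were all listed lincRNAs that met the distance rule, the 15 best-ranked promoters open in every list and any with a symbol of their own, the 20 best-ranked of each genotype-only group, and regions called by limma; other genes named were chosen after their values were seen. The members and lists were chosen with earlier results of these data known. The alternatives varied the threshold on peaks, how many were used, the overlap, the window, the distance, the starts, the chromosomes, the centring, the value tested and the libraries.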

Additional observations from a re-analysis of the deposited data

How the results depend on the processing

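The 245 promoters open in every list ranged from 204 to 277 under 11 alternatives. The difference in share (K43M minus wildtype, 0.307 points) was -0.274 when all lists were reduced to an equal number of peaks, and ran from -0.384 to 0.998 when 1 list was left out, below 0 without K43M replicate 1. The difference relative to protein-coding promoters (-0.00173) was 0.00133 with only peaks of -log10 q of at least 5, 0.0022 with the summit inside the window, 0.0021 with 500 bp on either side of the start and 0.0031 without chromosomes 12, 13 and 18, and ran from -0.0134 to 0.01 when 1 list was left out. No alternative gave an exact permutation p under 0.333, the smallest possible. Leaving out 1 list raised the 28 wildtype-only promoters to between 35 and 58 (50 without WT unnumbered, 58 without WT replicate 2 and 58 without K43M replicate 1) and the 39 K43M-only promoters to between 56 and 77 (60 without K43M replicate 1 and 77 without K43M replicate 2), since a single list then stands for its genotype. Other alternatives gave 20 to 31 and 29 to 43. Shares of all gene starts were not computed for these alternatives, so the changed counts have no background. The 1 lincRNA region called by limma became 0 without centring, 7 with -log10 p in place of fold enrichment, and 0 to 5 with 1 list left out, the lone line then being assumed to vary like the others: 5 without WT unnumbered, 3 without WT replicate 2 and 0 without either K43M list. Calls over all 20431 regions moved the same way, from 36 to 0 without centring and to 541 with -log10 p. With 1 list left out they also rose without either wildtype list and fell without either K43M list. The changed counts are therefore not particular to lincRNA promoters. The cause was not tested. No paired analysis was possible because the genotypes share only 1 replicate number in the labels. With 2 lines per genotype and no read totals, weak peaks present in 1 list only cannot be told from peaks that fell just under the threshold in another.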

Other observations

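LincRNAs on the X chromosome, which were outside the comparisons, showed few open promoters. By the same distance rule there were 91, of which WT unnumbered had a peak at 4.4%, WT replicate 2 at 3.3%, K43M replicate 1 at 5.49% and K43M replicate 2 at 5.49%. The 3 open in every list were *Jpx*, an activator of *Xist*, *9530027J09Rik* and *Gm1720*, and *Gm26652* was open in both K43M lists only.

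Other noncoding classes in the annotation lay between the lincRNAs kept by the distance rule and the protein-coding genes. The sets are unlike, because these classes were taken at any distance from a protein-coding start. LincRNAs within 5000 bp of such a start, at 40.1% to 44.9%, lay above all of these noncoding classes. Antisense genes had an open promoter at 20.8% to 22.7% in the 4 lists, processed transcripts at 33.9% to 37.5%, and transcripts still to be experimentally tested at 10.0% to 11.1%. Some noncoding RNAs often counted with lincRNAs are in these classes: the snoRNA hosts *Snhg5*, *Snhg8*, *Snhg17* and *Dancr* are annotated as processed transcripts and were open in every list, as was the imprinted antisense RNA *Kcnq1ot1*.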
